A study of Mus musculus with 6 samples.

Results

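The imprinted Dlk1-Meg3 locus of mouse chromosome 12 was examined in a map of N6-methyladenosine (m6A), the commonest internal base modification of messenger RNA. The locus was taken as the listed peaks whose midpoint lay between positions 110690000 and 110990000 (mm9). It held 22 of the 29950 peaks in the list and 22 of the 1194 on chromosome 12. Within it, 4 spans stood for the members: Dlk1 (110690000 to 110700000), Meg3 (110778000 to 110811000), Rian (110841000 to 110901000) and Mirg (110972000 to 110989000). All other peaks of the locus counted as lying between genes.

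The tissue was midbrain and striatum of adult mice on a C57BL/6 background, and every animal carried a global Fto knockout. Fto encodes an RNA demethylase that removes m6A. RNA depleted of ribosomal RNA was immunoprecipitated with an m6A antibody (MeRIP), giving 3 MeRIP libraries beside 3 input libraries, and all 6 led to 1 list of enriched regions. Control mice with intact Fto were not analysed here, so nothing below measures an effect of the knockout. The labels do not say whether the numbered libraries came from separate animals, or in what proportion both regions were combined. The list gives only coordinates, so the numbers below have no replicate error and no test between members was possible. Read depth is unknown.

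Genes of the locus are expressed from 1 parental chromosome. Dlk1, a coding gene, is expressed from the paternal copy and encodes a transmembrane protein with EGF-like repeats related to the Notch ligands; it is known from dopaminergic neurons of the midbrain, among other tissues. Meg3, Rian and Mirg are noncoding RNAs of the maternal copy. Meg3 is a long noncoding RNA that is abundant in brain and largely nuclear, Rian is a host of C/D box small nucleolar RNAs, and Mirg is a host of microRNAs. In a RefSeq gene table of build GRCm38.p6 all 4 members lay in this order, and their listed promoters were all on the plus strand, so that transcription runs from lower to higher coordinates. The spans are rounded, and exons, introns and transcript ends were not assigned, because no mm9 annotation was used here.

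Enriched stretches lay almost entirely in and just past Meg3. Touching peaks were merged into stretches, since the list divides runs over 200 bp into parts of near-equal length, which differed by at most 1 bp in the locus. The 22 peaks of the locus formed 14 stretches, of which 10 lay in Meg3, 3 lay between genes just past it, and 1 lay in Rian. Dlk1 and Mirg had 0 listed stretches. Coding Dlk1 therefore differed from Meg3, but not from Mirg, in having none, and the noncoding RNAs differed widely among themselves.

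**Figure D1:**
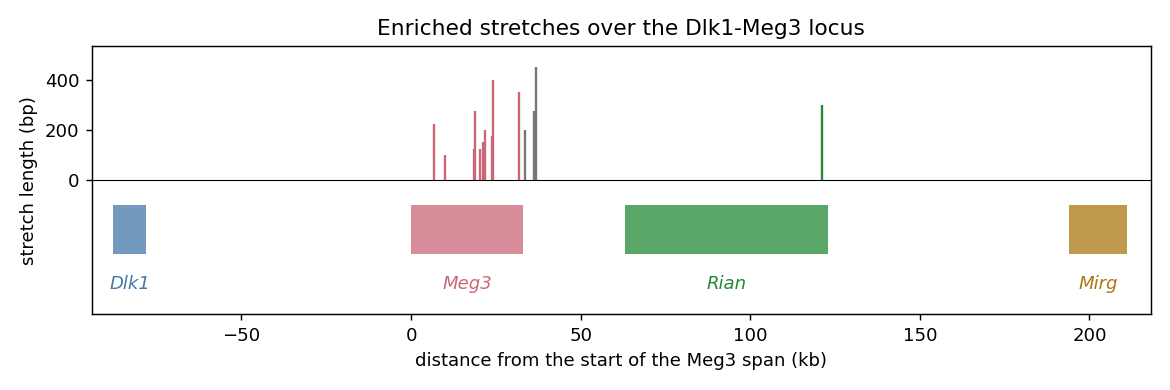
Map of the locus, with distance from the start of the Meg3 span (kb) on the horizontal axis; coloured bars are the spans of the 4 members, and each vertical line is a stretch whose height is its length (bp; grey, between genes). Of the 14 stretches, 13 sit in or just past Meg3, 1 sits near the end of Rian, and the spans of Dlk1 and Mirg are empty.

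Meg3 carried 10 stretches made of 14 peaks, at 3.03 stretches per 10 kb of its 33 kb span. They covered 2125 bp, or 6.44% of the span. A span holds introns, so this share is not the share of the mature RNA. The stretches were 100 to 400 bp long, with a median of 187.5 bp and a mean of 212.5 bp ± 101 (SD over stretches). In the whole list of 19404 stretches the median was 200 bp and the mean 232.1 bp ± 147 (SD over stretches). Stretches over 200 bp made up 4 of the 10 in Meg3 (40%) and 40.5% of the whole list. The lengths in Meg3 thus lay near those of the list as a whole, which was not tested.

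The first 6525 bp of the Meg3 span held no stretch. The first stretch lay at 110784526 to 110784750 and was 225 bp long, and a 100 bp stretch, the shortest length in the list, followed at 110787926 to 110788025. After the widest gap of the gene, 8400 bp, came a dense group. This group had 7 stretches within 5950 bp, at 110796426 to 110802375, and 24.4% of its bases lay inside a stretch.

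Within the dense group, a 125 bp stretch at 110796426 to 110796550 was followed after 300 bp by one of 275 bp at 110796851 to 110797125. Next came short stretches of 125 bp at 110798351 to 110798475, 150 bp at 110799251 to 110799400 and 200 bp at 110799626 to 110799825. The group ended with 175 bp at 110801676 to 110801850 and, only 125 bp further on, the longest stretch of Meg3, 400 bp at 110801976 to 110802375. Of all stretches in the list, 11.2% were at least that long. A gap of 7175 bp separated it from the last stretch of Meg3, which was 350 bp long, at 110809551 to 110809900, and ended 1100 bp before the end of the span. By length the 3 longest were these of 400 and 350 bp and the one of 275 bp.

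**Figure D2:**
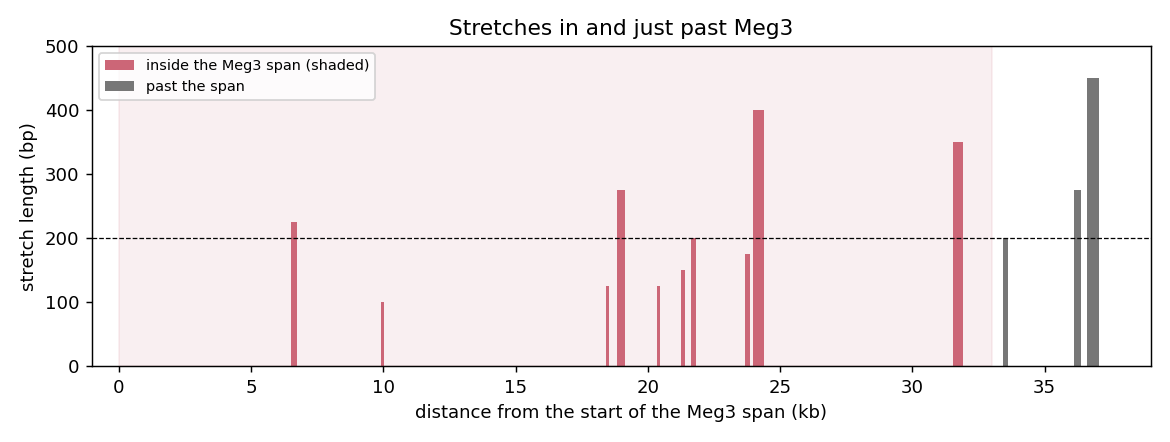
Stretches in Meg3 and past it, with distance from the start of the Meg3 span (kb) on the horizontal axis and stretch length (bp) on the vertical; bar widths are drawn to scale, and the dashed line marks 200 bp, the longest single peak of the list. The 7 stretches of the dense group lie 18425 to 24375 bp from the start of the span, and the longest stretch of the locus, 450 bp, lies past the span.

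Spacing in Meg3 was uneven. Gaps between neighbouring stretches ran from 125 to 8400 bp, with a median of 1225 bp. The first 10 kb of the span held 2 stretches, the next 10 kb also held 2, those from 20 to 30 kb held 5, and the last 3 kb held 1. Joining stretches at most 5 kb apart over the whole list gave 10944 clusters. The dense group of Meg3 was one of 133 clusters (1.22%) with 7 or more stretches. The first pair of Meg3 stretches formed a cluster of its own, and 40.2% of all clusters held 2 or more.

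The stretches between genes continued the series past Meg3. A 200 bp stretch at 110811426 to 110811625 began 425 bp past the end of the span. It was followed by 275 bp at 110814101 to 110814375 and 450 bp at 110814601 to 110815050, the longest of the locus, made of 3 equal peaks. Of all stretches in the list, 8.06% were at least as long as the last of these. These 3 stretches and the last one of Meg3 formed a single cluster of 5500 bp, of which 23.2% lay inside a stretch, and 948 of the 10944 clusters (8.66%) held 4 or more. The rounded end of the Meg3 span thus cuts through a cluster, and assigning its outer stretches to Meg3 or to RNA made beyond it was not possible from the list. From the first stretch of Meg3 to the last of these, the run extended over 30.5 kb.

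Strand limits the assignment further. Rtl1, a coding gene derived from a retrotransposon and expressed from the paternal copy, is transcribed opposite to the maternal noncoding RNAs. In the GRCm38.p6 gene table Rtl1 overlapped both Meg3 and Rian. The list has no strand, so signal from Rtl1 and from the noncoding RNAs over the shared sequence cannot be told apart. The same table started 15 microRNA genes, Rtl1 and the long noncoding RNA 6430411K18Rik between the starts of Meg3 and Rian, none of them wholly inside Meg3. Since Rtl1 overlapped both neighbours, it took in all sequence from the end of Meg3 to the start of Rian in that table. The label between genes therefore means only outside the member spans. By gene order, any of the 3 stretches past the annotated end of Meg3 would fall within Rtl1. Whether they lie past that end, and which other genes they overlap, was not tested, because the builds differ.

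Rian held 1 stretch in a span of 60 kb. It lay at 110898951 to 110899250, was 300 bp long and consisted of 2 equal peaks of 150 bp, and 22.2% of all stretches were at least as long. This gives 0.167 stretches per 10 kb and 0.5% of the span covered. At the density of Meg3 a span of 60 kb would hold 18.2 stretches. Such scaled counts, here and for Dlk1 and Mirg below, go by genomic span with exons not assigned, and are not expected numbers. The first 57950 bp of the Rian span held none. By the gene table, Rian contains 11 small nucleolar RNA genes and 3 microRNA genes (Mir341, Mir1188 and Mir370), and their distance to the stretch was not tested, because the builds differ. The midpoint of the stretch lay at 96.8% of the span, 1750 bp before its rounded end.

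Dlk1 had 0 listed peaks in its 10 kb span. The nearest stretch after it was the first of Meg3, 84.5 kb past the end of the span, and the nearest before it lay 418 kb from the start, both far beyond the rounding of the span. In gene order, the long noncoding RNAs Gm34081 and Gm34017 start between the starts of Dlk1 and Meg3, and neither lies wholly inside Dlk1. No stretch was listed between the spans of Dlk1 and Meg3. At the density of Meg3 a span of 10 kb would hold 3.03 stretches. At the density of the 3 noncoding RNAs combined (11 stretches in 110000 bp, or 1 per 10 kb) it would hold 1. Of these 11 stretches 10 lay in Meg3, and Rian alone had 0.167 per 10 kb. Every 10 kb window inside the Meg3 span, moved in steps of 25 bp over 921 positions, held between 1 and 7 stretches, with a median of 3. Of 2001 such windows inside Rian, 96.2% were empty. A window the size of Dlk1 was thus never empty in Meg3 and mostly empty in Rian. Over the span of listed peaks on all chromosomes, 95.5% of 10 kb tiles were empty, with sequence outside genes included.

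Mirg also had 0 listed peaks, in a span of 17 kb. The nearest stretch before it was that of Rian, 72.8 kb from the start of the span, and the nearest after it lay 530 kb beyond the end. At the density of Meg3 the span of Mirg would hold 5.15 stretches, and at that of the noncoding RNAs together 1.7. The latter density includes the empty span of Mirg itself. In gene order, 30 microRNA genes, 8 small nucleolar RNA genes and 2 pseudogenes start between the starts of Rian and Mirg. None of these lies wholly inside Rian, and 10 further microRNA genes lie inside Mirg. No stretch was listed from the end of the Rian stretch through the end of the Mirg span. The positions of these small RNA genes in mm9 were not used here. Windows of 17 kb inside Meg3 held 2 to 8 stretches, while 95.5% of those inside Rian were empty. Over the span of listed peaks on all chromosomes, 92.9% of 17 kb tiles were empty. The part of RNA level, depth and methylation in the absence of Dlk1 and Mirg from the list was not tested. The list holds no RNA level, so whether either RNA was low is not known. If either were, fewer expressing cells and less RNA per cell could not be told apart in this bulk tissue.

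**Figure D3:**
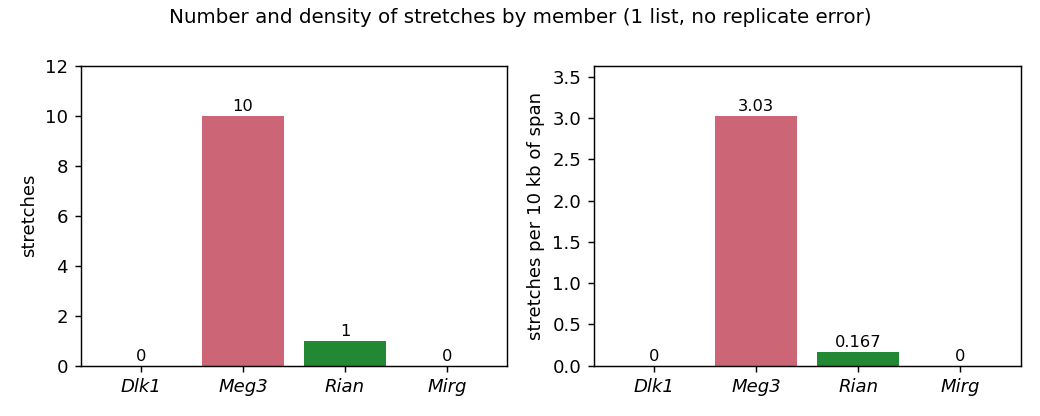
Number of stretches (left) and stretches per 10 kb of span (right) for Dlk1, Meg3, Rian and Mirg, each bar being 1 value from the single list, without error. Meg3 has 10 stretches at 3.03 per 10 kb, Rian has 1 at 0.167 per 10 kb, and Dlk1 and Mirg are at 0.

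The microRNAs of the locus allow a look at sequence without coordinates. Methyltransferase activity favours adenosine in a short motif, of which GGAC is the commonest core. Of 60 microRNA genes from Dlk1 to Mirg in the gene table, 57 had a hairpin sequence in RefSeq (GRCm38.p6). As transcribed, 10 of the 57 hairpins (17.5%) held GGAC, against 246 of all 1005 mouse hairpins in the table (24.5%). With the reverse complement GUCC also accepted, the shares were 40.4% and 40.5%. GUCC is GGAC on the opposite strand, so the latter shares do not describe the RNA as transcribed. None of the hairpins inside Meg3 (1 with a sequence) or inside Rian (3) held GGAC, and 3 of 10 inside Mirg did. The letters GGAC are therefore present in hairpins of Mirg, which had no listed peak. The base after GGAC was not considered, so a match need not be the full motif. A match describes letters only and is no evidence of a methylated site.

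The 10 hairpins that hold GGAC are shown 5′ to 3′ in the order of the genes, from chromosome 12, with GGAC in capitals. The first starts between the starts of Meg3 and Rian, the next 6 between those of Rian and Mirg, and the last 3 are inside Mirg. None of the first 7 lies wholly inside Meg3 or Rian. All are on the plus strand apart from Mir299b, which is read from the opposite strand of Mir299a and still holds GGAC. The shares above count this pair from a single site as separate hairpins.
Mir136: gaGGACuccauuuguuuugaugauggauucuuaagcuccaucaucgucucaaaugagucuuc
Mir299a: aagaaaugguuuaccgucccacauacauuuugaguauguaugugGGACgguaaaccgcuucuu
Mir299b: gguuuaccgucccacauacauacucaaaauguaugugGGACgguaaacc
Mir1197: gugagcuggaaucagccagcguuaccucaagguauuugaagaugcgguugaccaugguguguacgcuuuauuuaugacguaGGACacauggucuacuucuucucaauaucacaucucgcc
Mir679: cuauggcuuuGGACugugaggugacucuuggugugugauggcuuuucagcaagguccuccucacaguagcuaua
Mir1193: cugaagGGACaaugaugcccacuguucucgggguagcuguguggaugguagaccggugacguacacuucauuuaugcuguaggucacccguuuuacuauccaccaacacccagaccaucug
Mir382: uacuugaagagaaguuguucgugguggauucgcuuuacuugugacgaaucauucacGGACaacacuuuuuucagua
Mir409: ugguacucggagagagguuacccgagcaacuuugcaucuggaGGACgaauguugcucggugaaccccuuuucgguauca
Mir412: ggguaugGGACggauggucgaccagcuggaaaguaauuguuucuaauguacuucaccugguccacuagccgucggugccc
Mir3072: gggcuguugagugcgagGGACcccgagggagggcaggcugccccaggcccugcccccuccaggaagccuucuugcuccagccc

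Wide gaps flanked the listed stretches of the locus on the chromosome. Before the first stretch of Meg3, 512 kb held no listed peak, a gap that 63 of 763 gaps on chromosome 12 (8.26%) equalled or exceeded. After the stretch of Rian, 619 kb held none, which 49 of 763 (6.42%) equalled or exceeded. The gap before Meg3 takes in the empty span of Dlk1 and the gap after Rian that of Mirg, so part of each lies inside the locus. Measured from those spans, 418 kb before Dlk1 and 530 kb after Mirg held no listed peak. Inside the locus, the gap from the last stretch past Meg3 to Rian was 83.9 kb, and 28.3% of gaps on the chromosome were at least as wide.

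Among all tiles of 300 kb that held a peak, the median was 3 stretches, and 219 of 4195 tiles (5.22%) held at least the 14 of the locus. The richest tile held 63. At the size of Meg3, 33 kb, 51 of 9393 occupied tiles (0.543%) held 10 or more stretches, with a median of 1 and a maximum of 18. At the size of Rian, 60 kb, occupied tiles had a median of 2 stretches against 1 in Rian, and 81.1% of all such tiles were empty. Chromosome 12 had 0.0648 stretches per 10 kb between its first and last stretch, against 0.167 in Rian and 3.03 in Meg3. The locus and the Meg3 span were placed around genes and the tiles were not, so these shares describe rank and are not a test.

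**Figure D4:**
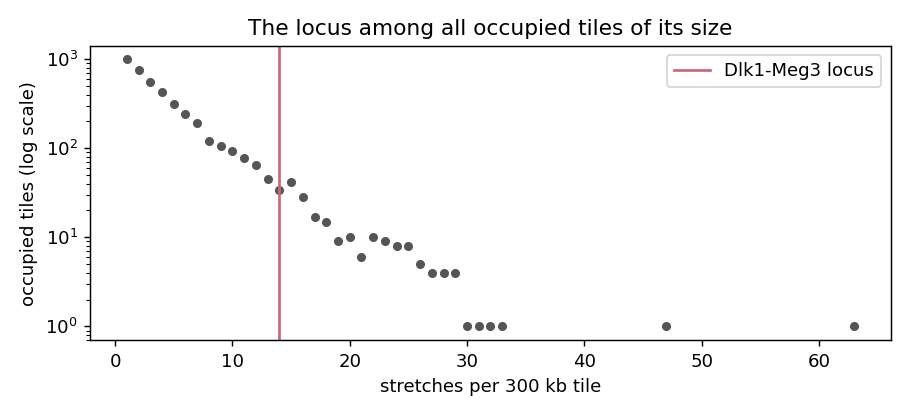
Number of stretches per 300 kb tile (horizontal) against the number of occupied tiles (vertical, log scale; each point gives how many tiles had that number) over the whole list; the vertical line marks the locus. With 14 stretches the locus lies in the upper part of the distribution, at or above which 5.22% of tiles fall.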

How the data were processed

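The 3 MeRIP and 3 input libraries share 1 file, the authors' deposited list of regions, with a chromosome, a start and an end in 3 columns and no score, strand or replicate values. The submitters' processing notes name build mm9, SAMtools 0.1.18 and BWA 0.6.2-r126. Peak calling, its cutoff and the role of the input libraries were not given in the sources used here. Without a cutoff or input values, an unlisted region cannot be read as unmethylated.

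Peaks were assigned to the locus and to members by midpoint, touching peaks (a gap of 0 bp) were merged, and positions are printed 1-based. Tiles started at multiples of their own size. Merging was tested on simulated runs cut into parts by the same 200 bp rule, where 500 of 500 stretches were recovered. That checks the code and not how the list was made. Gene order, hosted genes and hairpins came from RefSeq tables of GRCm38.p6, and no coordinate was compared between builds. Individual stretches were named in full for each member. The members, spans and gene list were chosen with earlier results of these data known. Python 3.11.15, numpy 2.4.6, scipy 1.17.1 and matplotlib 3.10.9 were used. The labelled tissue and the knockout were not checked against marker genes, which need an mm9 annotation.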

Additional observations from a re-analysis of the deposited data

How the results depend on the processing

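Stretch number was recounted with every listed peak, with peaks within 100 bp merged and with any overlap with the span. It was also recounted with stretches of at least 150 bp only and with spans widened by 2 kb. Dlk1 and Mirg stayed at 0 under these 5 alternatives, an outcome that was fixed in advance. The nearest stretch lay 84.5 kb from the Dlk1 span and 72.8 kb from the Mirg span, beyond the reach of every alternative. Meg3 had 7 to 14 under the same alternatives. Merging within 100 bp could change no count in the locus, because its narrowest gap was 125 bp. No stretch crossed the edge of a span, so counting any overlap could change none either. Counting every listed peak gave 2 in Rian and 6 between genes, because stretches over 200 bp are listed in parts. Widening the spans gave 11 stretches in Meg3 and left 2 between genes. The covered share of Meg3 was 8.37% when divided by the extent of its stretches in place of its span and 5.38% with stretches of at least 150 bp only; for Rian the first of these is 100% by construction, and for Dlk1 and Mirg it has no value. The share of occupied 300 kb tiles at or above the locus ran from 4.82% to 5.72%. The list has no score, so no stricter threshold could be set. No paired analysis was possible because all libraries share 1 list without replicate values, and none could be left out in turn. Read depth, RNA level and the unknown threshold limit what the empty spans mean.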
